A study of Mus musculus with 167 samples.

Results

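MiR-146a-5p, miR-146b-5p, miR-146b-3p and miR-155-5p, mature microRNAs (miRNAs) of the miR-146 and miR-155 families, were followed through lung, heart, brain, leukocytes (WBC) and erythrocytes (RBC) of irradiated and sham mice. They were taken by name from the count tables of all 5 tissues, in which they are 4 of 1915 mature miRNAs. The mice were of strain C3Hf/Sed/Kam (C3H) or C57Bl/6 (C57) and were young adults when they received whole thorax lung irradiation (WTLI), X-rays given once to the chest alone, or were sham-irradiated. The C3H mice were sampled in month 4 and the C57 mice in month 6, and only mice alive by then contributed, so strain and time cannot be told apart. In C3H, 7 WTLI and 8 sham mice gave lung, heart, brain and RBC, and 6 and 5 of them gave WBC; all were female. In C57, 5 WTLI mice (1 female, 4 male) and 15 sham mice (7 female, 8 male) gave the same tissues, with 5 and 11 WBC libraries. In all, 167 libraries came from 35 animals. Lung, heart and brain were whole homogenates, in which fewer cells of a type and less RNA per cell cannot be told apart.

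MiR-146 and miR-155 are classical miRNAs of inflammation. Both are transcribed when NF-κB is activated by Toll-like receptor or cytokine signals. MiR-146a and miR-146b repress the signalling proteins Traf6 and Irak1 of the same pathway and act as its brake, whereas miR-155 represses inhibitors such as Socs1 and Ship1 and is abundant in activated macrophages, B cells and T cells. A hairpin precursor yields a 5p and a 3p arm, of which usually 1 is kept, and bases 2 to 8 of the kept arm, the seed, pair with target mRNAs.

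The mature sequences are shown to make visible which members share a seed and how closely the 5p arms of miR-146 resemble each other. All 4 members were found by name in RefSeq (build GRCm38.p6), and capitals mark the seed.
mmu-miR-146a-5p: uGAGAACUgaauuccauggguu
mmu-miR-146b-5p: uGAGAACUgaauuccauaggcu
mmu-miR-146b-3p: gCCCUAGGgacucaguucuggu
mmu-miR-155-5p: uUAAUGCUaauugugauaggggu

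MiR-146a-5p and miR-146b-5p carry the same seed, which no other of 1679 mouse mature miRNAs has, and no other mature miRNA shares the seed of miR-146b-3p or of miR-155-5p. The 5p arms are identical over their first 17 bases and differ by G18A and U21C, counted from the 5′ end with the base of miR-146a-5p first. With the differing bases in capitals they read as follows.
miR-146a-5p: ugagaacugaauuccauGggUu
miR-146b-5p: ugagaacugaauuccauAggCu

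Their reads can therefore be told apart only by these bases near the 3′ end, and how the alignment assigned reads that end before them was not given in the sources used here. The arms come from separate loci. MiR-146a-5p lies at chr11:43374435-43374456 on the minus strand, within the gene Mir146, which overlaps no other annotated gene. MiR-146b-5p lies at chr19:46342790-46342811 and miR-146b-3p at chr19:46342828-46342849, both on the plus strand, in a hairpin within an intron of the protein-coding gene Mfsd13a. MiR-155-5p lies at chr16:84714143-84714165 on the plus strand, within an exon of the long non-coding RNA gene Mir155hg.

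Libraries held between 1794995 and 7865102 counts, with medians from 2966605 in brain to 4172573 in WBC, and levels are given as RPM, the reads per 1000000 reads of a library. MiR-208a-3p of cardiac muscle and miR-124-3p of neurons were higher in all 35 heart and all 35 brain libraries, respectively, than in any other tissue, and miR-34c-5p of ciliated epithelium was higher in all 35 lung libraries. The blood fractions were not separated by their markers. MiR-451a of erythrocytes was above all other libraries in 0 of 35 RBC libraries, and miR-223-3p of myeloid cells in 13 of 27 WBC libraries, so WBC and RBC are fractions rather than pure cell types here. In C57 lung, 2 sham males stood apart. Animals 1049 and 1052 had miR-21a-5p levels of 202363 and 236828 RPM, against 24169 to 54069 RPM in the other 13 sham lungs and 80219 to 159132 RPM in the 5 WTLI lungs. By this miRNA both libraries, labelled sham, lay above the irradiated lungs. The hearts of the same animals held 32.6 and 23.5 RPM of miR-146b-5p, below the 43.5 to 92.5 RPM of the 5 C57 WTLI hearts, and less miR-21a-5p than all 5. Heart values cannot show whether the lung libraries were labelled rightly. Both lungs were kept under their label, and the members' WTLI and sex comparisons in C57 lung are given with and without them.

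In sham mice, lung had the highest mean level of each member, although for miR-155-5p it did not differ from heart beyond the spread. MiR-146a-5p stood at 6830 ± 1504 RPM in lung (SD, n = 23), where it ranked 21 among all miRNAs by mean level. It stood at 871 ± 325 RPM in brain, 655 ± 553 in WBC (n = 16), 558 ± 161 in heart and 77.6 ± 40.8 in RBC. The fitted difference of lung over brain was 3.09 on the log2 scale (8.53-fold), and that of WBC over RBC was 2.46. The tissues between them were not ordered firmly. On library totals heart was below brain by 0.56 (SE 0.18, adjusted p = 0.0028) and above WBC by 0.57 (adjusted p = 0.00898), but with TMM factors heart was above brain by 0.58, and in C57 alone heart minus WBC was -0.37.

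MiR-146b-5p followed a different order, with lung and brain high and the other 3 tissues low. Its sham level was 1477 ± 1205 RPM in lung (SD, n = 23), with a median of 1185, and 965 ± 141 RPM in brain, where it ranked 86. It was only 53.7 ± 21.5 RPM in WBC, 37.3 ± 11.6 in heart and 29.4 ± 9.85 in RBC. Lung exceeded brain by 0.37 (SE 0.12, adjusted p = 0.00437), and brain exceeded WBC by 4.47. Lung exceeded heart by 5.03 (32.6-fold) for miR-146b-5p and by 3.66 (12.6-fold) for miR-146a-5p. WBC and heart could not be ordered (heart minus WBC -0.19, 95% confidence interval -0.55 to 0.17, adjusted p = 0.309). Heart and WBC lay above RBC by 0.40 (adjusted p = 0.0195) and 0.59 (adjusted p = 0.0052) on library totals, but both differences turned negative with quantile normalisation (-1.42 and -0.32).

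MiR-155-5p was about equally abundant in lung and heart. It stood at 80.05 ± 54.4 RPM in lung, with a median of 65.5, and at 62.0 ± 14.1 RPM in heart (SD, n = 23). The fitted difference of lung over heart was 0.15 (95% confidence interval -0.19 to 0.48, adjusted p = 0.43) and became -0.49 with quantile normalisation. WBC held 31.2 ± 23.6 RPM, brain 8.70 ± 3.94 and RBC 4.82 ± 2.42. Heart exceeded WBC by 1.74 and WBC exceeded brain by 1.40 on the log2 scale, whereas brain over RBC, 0.66 on library totals (adjusted p = 0.00171), turned to -0.91 with TMM factors.

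MiR-146b-3p, the arm opposite miR-146b-5p, was close to the detection limit. Its counts ran from 0 to 10 in sham lungs, 0 to 7 in brain, 0 to 8 in WBC, 0 to 3 in heart and 0 to 2 in RBC, and 19 of 23 sham hearts had none. Only in lung was it frequent enough to be tested. The opposite arms of the other hairpins were also rare, since miR-146a-3p averaged at most 0.426 RPM in any group and miR-155-3p had no read in any lung library. Tissue differences are a weak yardstick in these data because most miRNAs differ between most tissues. Of 524 miRNAs tested, 67.6% passed an adjusted p of 0.05 between lung and heart, 87.8% between lung and brain, 88.5% between heart and brain, 90.1% between heart and WBC, 88.5% between heart and RBC, 90.6% between brain and WBC, 93.7% between brain and RBC and 41.8% between WBC and RBC.

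**Figure D1:**
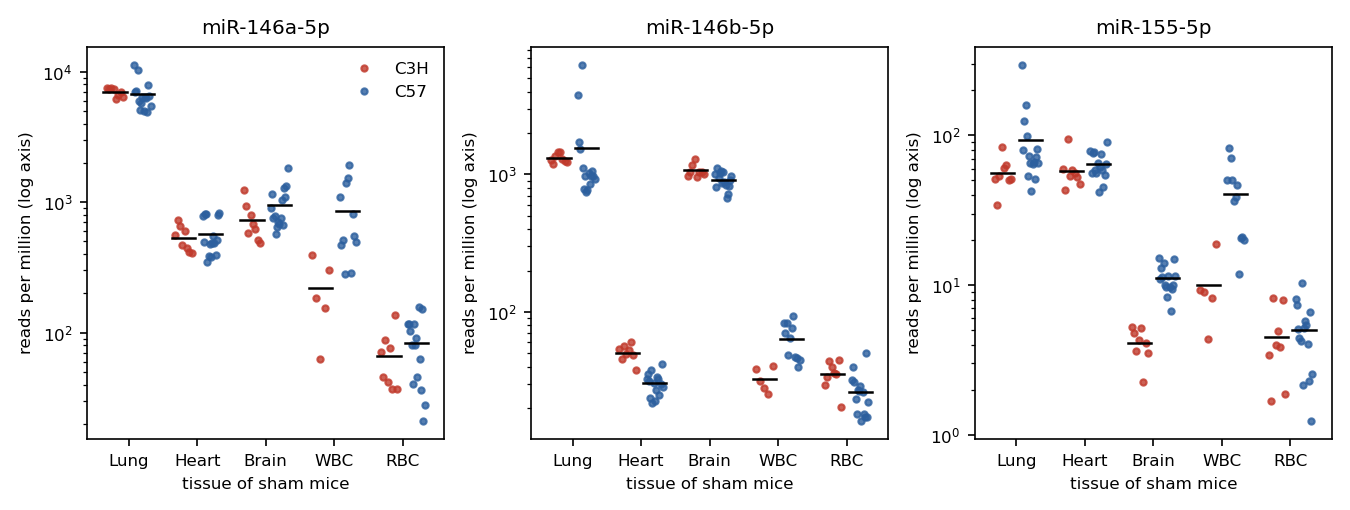
Levels of miR-146a-5p, miR-146b-5p and miR-155-5p in sham mice, in RPM on a log axis, by tissue. Each point is a library, red for C3H and blue for C57, and bars are group means; lung is highest for miR-146a-5p, lung and brain for miR-146b-5p, and lung and heart for miR-155-5p.

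Across the 20 groups of tissue, strain and irradiation, the members were compared with each other and with other miRNAs. The Pearson correlation of log2 levels was 0.83 between miR-146a-5p and miR-146b-5p, 0.77 between miR-146a-5p and miR-155-5p, and 0.32 between miR-146b-5p and miR-155-5p. Among 295 miRNAs with enough reads, those most like miR-146b-5p were the 3 members of the miR-183 cluster, miR-182-5p (0.98), miR-183-5p (0.97) and miR-96-5p (0.96). Most like miR-146a-5p were miR-365-3p (0.97), miR-362-3p (0.94) and miR-351-5p (0.94), and most like miR-155-5p were miR-503-5p (0.93), miR-542-3p (0.91) and miR-503-3p (0.87), which come from 1 cluster. MiR-146b-3p was most like miR-375-3p (0.82) and its own 5p arm (0.80). These values describe 20 points of which 4 share each tissue, so tissue differences enter them, to an extent that was not tested. Each closest miRNA is the highest among all candidates, so its value is not comparable with those between the members.

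Whether these miRNAs differ months after WTLI was asked within each tissue and strain. In C3H lung, miR-146b-5p was higher after WTLI. MiR-146b-5p ranged from 1185 to 1449 RPM in sham lungs, with a median of 1286, and from 2427 to 4050 RPM in WTLI lungs, with a median of 2872. All 7 WTLI lungs lay above all 8 sham lungs. The sham mean was 1311 ± 96.4 RPM (SD, n = 8) and the WTLI mean 3153 ± 678 RPM (SD, n = 7), and the fitted change was 1.21 on the log2 scale (SE 0.32, 2.31-fold, adjusted p = 0.0037, limma). With edgeR (0.97), DESeq2 (0.99) or TMM factors (0.95) it kept an adjusted p under 0.05 but fell below the fold minimum (a change of 1.17 on the log2 scale), as it did without WTLI animal 2077 or 2094 (lowest 1.10), and among mice with the letter A in their labels, whose meaning was not stated, its adjusted p was 0.137. MiR-146b-3p had far lower counts, 1.33 ± 0.849 RPM (2 to 10 counts) in sham and 5.08 ± 1.64 RPM (9 to 28 counts) in WTLI lungs. Of the WTLI lungs 6 of 7 lay above every sham lung, and the change was 1.501 (SE 0.39, adjusted p = 0.00333). It missed the threshold in a joint fit of all tissues with the animal as a block (1.63, where the adjusted p = 0.0568). It reached 10 counts in 6 of 7 C3H WTLI lungs but in 1 of 8 C3H sham lungs, so it entered the test through the group in which it is high and its call is a description only.

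MiR-146a-5p, with the same seed as miR-146b-5p, changed less in C3H lung. Sham lungs held 6225 to 7527 RPM, with a median of 7147, and WTLI lungs 6678 to 11828 RPM, with a median of 8169. The groups overlapped, although 5 of 7 WTLI lungs lay above all sham lungs. The fitted change was 0.46 (SE 0.18, 1.37-fold, adjusted p = 0.0478), but it was 0.06 with edgeR, 0.08 with DESeq2 and 0.01 with TMM factors in voom (adjusted p = 0.959). In the joint fit of all tissues with an animal block it was 0.50 (adjusted p = 0.182), and the adjusted p reached 0.119 with 1 library left out. A change of miR-146a-5p in C3H lung therefore depended on how the libraries were scaled.

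MiR-155-5p in C3H lung went from 34.4 to 83.5 RPM in sham mice, with a median of 52.2, to 72.8 to 121 RPM after WTLI, with a median of 92.6. Of the WTLI lungs 6 of 7 lay above all sham lungs in RPM. The quantile-normalised change was nevertheless only 0.35 (SE 0.26, adjusted p = 0.317), and on library totals alone it was 0.79 (adjusted p = 0.0215). On library totals the median of all miRNAs in C3H lung moved by 0.27, against -0.08 with quantile normalisation.

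Leaving miR-146b-3p aside, 2 of 3 members passed the adjusted p in C3H lung and 1 of them, miR-146b-5p, also passed the fold minimum. Of all 350 miRNAs tested in that comparison 33.4% passed the adjusted p and 9.71% were called with the fold minimum. The median change was -0.08 over all of them.

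In C57 lung, miR-146b-5p was higher after WTLI than in most sham lungs, and how clearly depended on single libraries, the 2 sham males that stood apart among them. The 5 WTLI lungs held 3173, 1230, 2272, 2950 and 3408 RPM. Sham lungs ranged from 740.7 to 6266 RPM, with a median of 981. Sham animals 1049 and 1052 held 3752 and 6266 RPM, and the other 13 held 740.7 to 1721 RPM. All 5 WTLI lungs lay above the sham median, and 0 of 5 lay above every sham lung. The change was 0.94 (SE 0.32, 1.92-fold, adjusted p = 0.0356). Without animals 1049 and 1052, an alternative chosen after the data were seen, it was 1.24 (adjusted p = 1.52e-05), whereas edgeR and DESeq2 with all libraries gave 0.61 (adjusted p = 0.224) and 0.62 (adjusted p = 0.221) and males alone gave 0.49 (adjusted p = 0.682). Mice with the letter A gave 0.18 (adjusted p = 0.899) and those with the letter B 1.60 (adjusted p = 2.93e-06). The adjusted p rose above 0.05, to at most 0.119, without any 1 of 7 libraries, those of WTLI animals 1055, 1065, 1069 and 1089 and of sham animals 1062, 1064 and 1073. Without WTLI animal 1056 the change also passed the fold minimum.

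The other members did not pass in C57 lung. MiR-155-5p was 190, 128, 109, 99.6 and 131 RPM in the WTLI lungs, against 42.3 to 296 RPM with a median of 71.6 in sham lungs. All 5 WTLI values exceeded the sham median, and the change was 0.59 (SE 0.25, adjusted p = 0.0915). Animals 1049 and 1052 again held the highest sham levels, 295.6 and 159.6 RPM, and without them the change was 0.81 (adjusted p = 0.000447). It also passed without either of them alone. MiR-146a-5p was 3773, 7385, 7213, 7806 and 4648 RPM after WTLI and 4941 to 11279 RPM with a median of 6339 in sham lungs, a change of -0.10 (SE 0.18, adjusted p = 0.74), or 0.03 without animals 1049 and 1052. MiR-146b-3p had 6 to 11 counts after WTLI and 0 to 10 in sham lungs. Leaving it aside again, 1 of 3 members passed the adjusted p and none was called with the fold minimum, against 16.6% and 6.0% of all 350 miRNAs.

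No difference between the strains in the response of lung was detected for the members. The C3H effect minus the C57 effect was 0.27 for miR-146b-5p (95% confidence interval -0.64 to 1.18, adjusted p = 0.777), 0.56 for miR-146a-5p (adjusted p = 0.346) and -0.24 for miR-155-5p (95% confidence interval -0.97 to 0.50, adjusted p = 0.777). The sign for miR-146b-5p was not settled, since it was -0.03 without animals 1049 and 1052 and -0.44 in letter B alone. Without these animals the difference was 0.43 for miR-146a-5p (adjusted p = 0.302) and -0.46 for miR-155-5p (adjusted p = 0.326). Only 0.286% of all miRNAs passed this test.

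**Figure D2:**
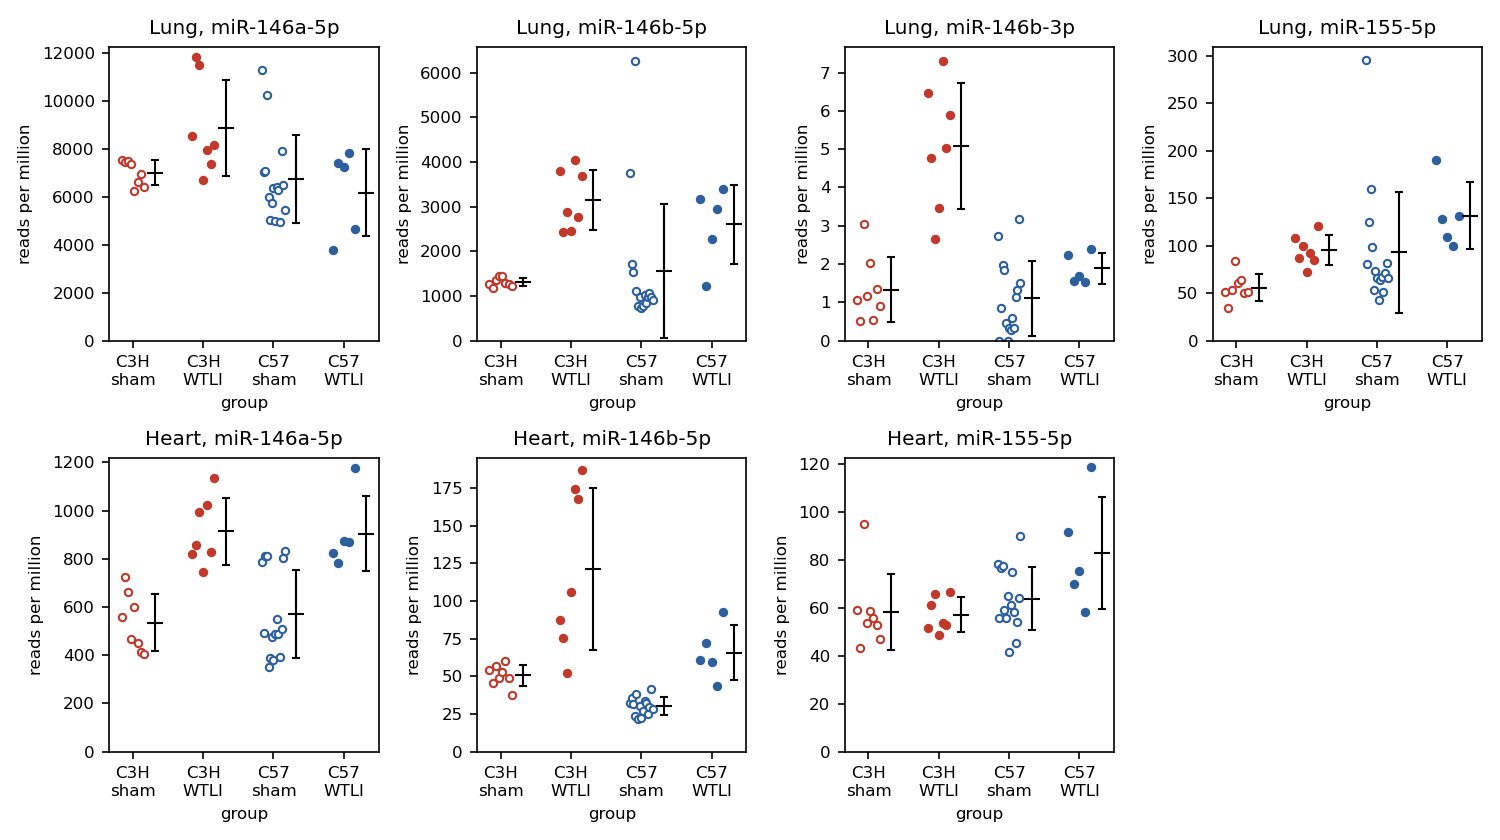
Levels in lung (upper row) and heart (lower row) in RPM on linear axes that start at 0, by strain and irradiation. Points are libraries, open for sham and filled for WTLI, and the cross-bars give mean ± SD; miR-146b-5p of all 7 WTLI lungs of C3H and all 5 WTLI hearts of C57 lies above every sham value of the same strain, and the 2 highest C57 sham lungs are animals 1052 and 1049.

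The heart lay in the irradiated field too, and there miR-146b-5p was higher after WTLI in both strains, at a level far below that of lung. In C3H hearts it ranged from 37.8 to 60.1 RPM in sham mice, with a median of 50.9, and from 52.3 to 187 RPM after WTLI, with a median of 106. Of the WTLI hearts 6 of 7 lay above all sham hearts. The mean went from 50.7 ± 6.93 to 121 ± 53.9 RPM, and the change was 1.24 (SE 0.22, 2.37-fold, adjusted p = 7.47e-05). It fell below the fold minimum, with an adjusted p still under 0.05, on library totals alone (1.14) and without any 1 of WTLI animals 2091, 2092 and 2094 (lowest 1.09). It did so too among mice with the letter A (0.84, adjusted p = 0.0157), against 1.47 among those with the letter B.

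In C57 hearts the 5 WTLI values of miR-146b-5p were 60.7, 71.9, 59.7, 43.5 and 92.5 RPM. The 15 sham hearts held 21.8 to 41.6 RPM, with a median of 30.2, so that the groups did not overlap. The change was 0.98 (SE 0.22, 1.97-fold, adjusted p = 0.00557), below the fold minimum. No single library left out took the adjusted p above 0.05 (0.87 to 1.10, highest adjusted p = 0.0409), whereas among mice with the letter B it was 0.102.

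MiR-146a-5p also rose in C3H heart, without overlap of the groups. Sham hearts held 407 to 725 RPM, with a median of 513, and WTLI hearts 743 to 1136 RPM, with a median of 856. The change was 0.96 (SE 0.18, 1.94-fold, adjusted p = 0.000229), and in the joint fit of all tissues with an animal block it was 0.65 (adjusted p = 0.184). In C57 heart it was 824, 781, 872, 869 and 1177 RPM after WTLI and 350 to 831 RPM with a median of 493.1 in sham hearts. The highest sham hearts overlapped the lowest 2 WTLI hearts, and the change was 0.34 (SE 0.18, adjusted p = 0.398), or 0.71 (adjusted p = 0.0141) on library totals alone.

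MiR-155-5p showed no change in heart that passed the test. C3H hearts held 43.5 to 94.999 RPM in sham mice, with a median of 54.8, and 48.5 to 66.9 RPM after WTLI, with a median of 53.6 (0.11, 95% confidence interval -0.25 to 0.48, adjusted p = 0.649). C57 hearts held 91.6, 69.9, 75.6, 58.5 and 118.8 RPM after WTLI and 41.8 to 90.1 RPM with a median of 61.4 in sham mice (0.29, 95% confidence interval -0.07 to 0.66, adjusted p = 0.464). MiR-146b-3p was too rare in heart to be tested, with 28 of 35 hearts at 0 counts.

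Of the 3 members tested in heart, 2 passed the adjusted p in C3H and 1 of these was called, against 16.7% and 6.73% of all 312 miRNAs. In C57 heart 1 of 3 passed and none was called, against 3.53% and 0.962%. The strain difference of the heart effect was 0.61 for miR-146a-5p (adjusted p = 0.26), 0.27 for miR-146b-5p (adjusted p = 0.626) and -0.18 for miR-155-5p (adjusted p = 0.687), and 0.0% of all miRNAs passed it.

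The effects in lung and heart were also compared directly. For miR-146b-5p the lung effect minus the heart effect was 0.17 in C3H (95% confidence interval -0.76 to 1.10, adjusted p = 0.85) and 0.14 in C57 (95% confidence interval -0.81 to 1.09, adjusted p = 0.952). For miR-146a-5p it was -0.32 in C3H (adjusted p = 0.506) and -0.45 in C57 (adjusted p = 0.415), and with TMM factors -1.06 (adjusted p = 0.00398) and -0.94 (adjusted p = 0.0255). For miR-155-5p it was 0.24 in each strain. Without sham animals 1049 and 1052 the C57 differences were 0.49 for miR-146b-5p, -0.31 for miR-146a-5p and 0.45 for miR-155-5p, with adjusted p of 0.315 or more. Over all miRNAs 6.68% passed this test in C3H and 5.61% in C57.

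**Figure D3:**
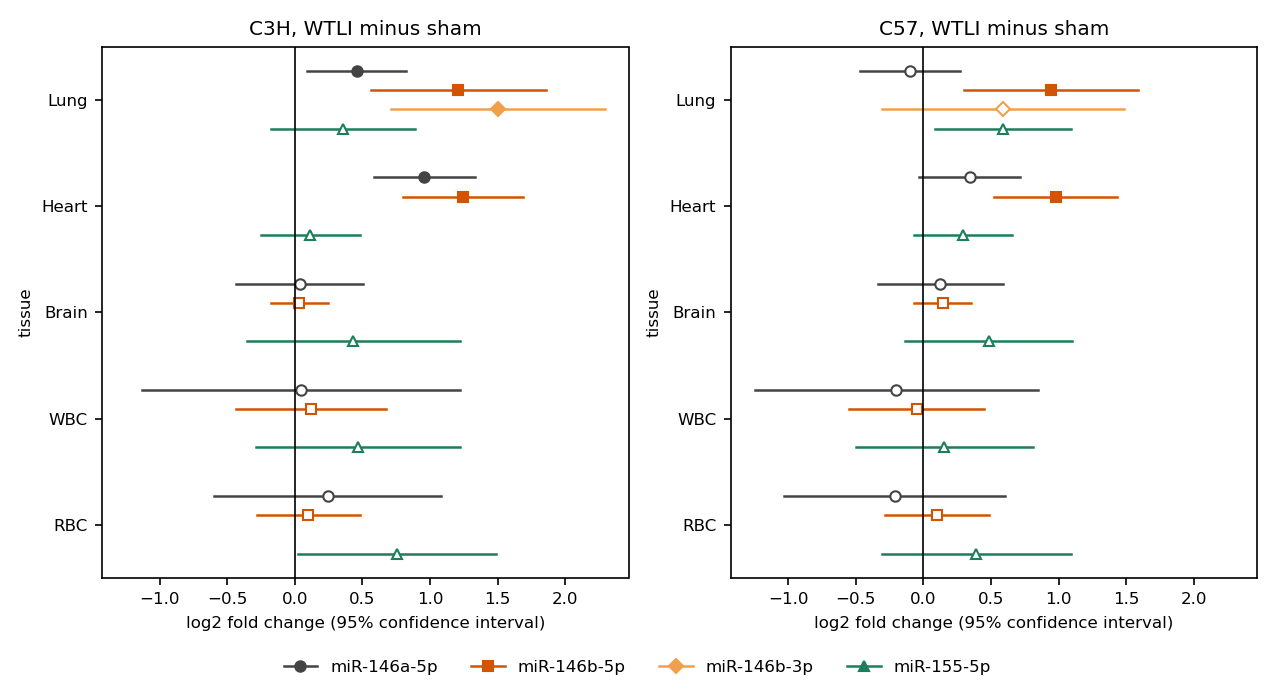
Fitted log2 fold change of WTLI over sham with its 95% confidence interval, for C3H (left) and C57 (right), by tissue. Filled symbols have an adjusted p under 0.05, open ones do not; filled symbols occur in lung and heart only, and miR-146b-5p is filled in both of these tissues in both strains.

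Because miR-146a-5p and miR-146b-5p share a seed, the share of miR-146b-5p in their summed reads gives the makeup of that seed family, and a ratio within a library does not depend on how libraries are scaled. In sham mice this share was 53.7% ± 10.1 in brain (SD, n = 23), 30.2% ± 9.81 in RBC, 16.4% ± 5.59 in lung, 11.1% ± 6.58 in WBC (n = 16) and 6.61% ± 2.37 in heart. Brain was the tissue in which both arms contributed about equally, and miR-146a-5p made up most of the family elsewhere.

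After WTLI the makeup of the family shifted towards miR-146b-5p in lung. The share was 15.8% ± 1.53 in C3H sham lungs, where it ran from 13.8% to 18.8%, and 26.7% ± 6.13 after WTLI, from 17.02% to 33.7%. On the log2 scale the ratio of miR-146b-5p to miR-146a-5p was higher by 0.93, and 6 of 7 WTLI lungs lay above all sham lungs (two-sided exact permutation test p = 0.000311, adjusted p = 0.00622 over 20 ratio tests). As a difference in medians it was 1.01 (adjusted p = 0.0518), and within letter A and letter B, with 3 and 4 WTLI lungs, 0.69 (adjusted p = 0.333) and 1.08 (adjusted p = 0.114). Within each letter all WTLI lungs lay above all sham lungs in this ratio. With so few libraries the exact test could hardly pass after adjustment, so these misses say little. In C57 lungs the share was 16.7% ± 6.91 in sham mice and 30.7% ± 13.1 after WTLI. The ratio was higher by 1.13 (exact permutation p = 0.00645, adjusted p = 0.0322), with 2 of 5 WTLI lungs above all sham lungs and 4 of 5 above the sham median. Without sham animals 1049 and 1052 it was higher by 1.32 (adjusted p = 0.00934). The adjusted p rose above 0.05 in C57 males alone (0.68, adjusted p = 0.544) and without any 1 of the WTLI animals 1055, 1069 and 1089.

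In C3H heart the share of miR-146b-5p was 8.88% ± 1.77 in sham mice and 11.5% ± 4.15 after WTLI, and in C57 heart 5.40% ± 1.66 and 6.75% ± 1.34. The log2 ratio differed by 0.35 (adjusted p = 0.483) and 0.38 (adjusted p = 0.282), which the exact permutation test did not distinguish from 0. In C3H brain the share was 60.2% in sham and 60.4% in WTLI mice, and in C57 brain 50.2% and 51.2%. The C3H shares were 15.99% and 14.4% in WBC and 36.8% and 33.8% in RBC, and the C57 shares 8.82% and 9.75% in WBC and 26.6% and 31.4% in RBC. None of these 6 differences passed.

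The balance of the arms of the miR-146b hairpin, miR-146b-5p over miR-146b-3p, in C3H lung was lower after WTLI by 0.71 on the log2 scale (exact permutation test, adjusted p = 0.12) and by 0.16 in C57 lung (adjusted p = 0.898, and a difference of -0.09 without animals 1049 and 1052). Of the 10 tests of this ratio, which are among the 20, those in C3H brain (1.58, adjusted p = 0.0238) and C57 heart (1.25, adjusted p = 0.02) passed, in the opposite direction to lung. There the 0.5 added to the counts sets much or all of the ratio, since the 3p arm had 2 to 7 counts in C3H sham brains, 0 to 3 in C3H WTLI brains and none in 28 of 35 hearts, so nothing is read from them.

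**Figure D4:**
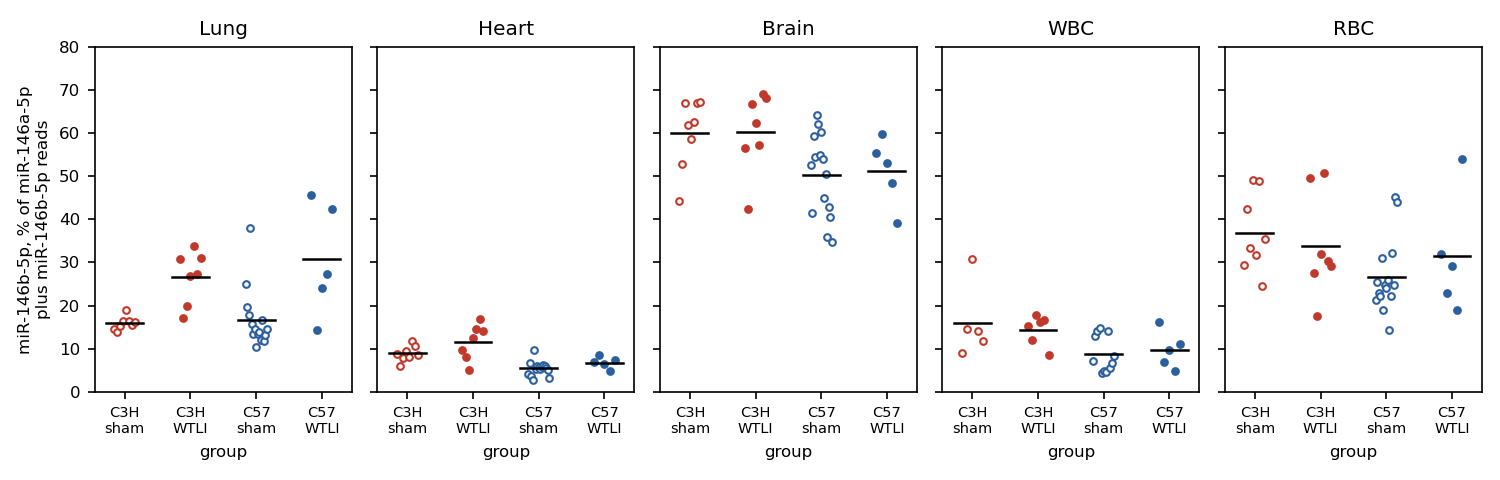
Share of miR-146b-5p in the summed reads of miR-146a-5p and miR-146b-5p, in percent on an axis from 0 to 80, by tissue, strain and irradiation. Points are libraries (open sham, filled WTLI), bars are means; the means of the WTLI lungs are 26.7% in C3H and 30.7% in C57, against 15.8% and 16.7% in sham lungs, and the means of brain are 50.2% or higher in every group.

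In brain, which was not irradiated, and in the blood fractions, no change of the members after WTLI passed the test. Of 3 members tested in each, 0 passed in either strain, and 0.0% of all miRNAs passed in each of these 6 comparisons (limma, with 9 and 53 miRNAs at an unadjusted p under 0.05 in C3H and C57 brain, 20 and 12 in WBC, and 43 and 14 in RBC). In brain miR-146b-5p was precise enough to limit a change, at 0.03 in C3H (95% confidence interval -0.18 to 0.24) and 0.14 in C57 (-0.07 to 0.36). In WBC the intervals of miR-146a-5p were wide, -1.13 to 1.22 in C3H and -1.25 to 0.85 in C57, at levels that ranged from 62.7 to 1935 RPM between sham libraries. The largest estimate of a member was that of miR-155-5p in C3H RBC, where sham libraries held 1.67 to 8.23 RPM and WTLI libraries 2.84 to 27.5 RPM. Its change was 0.75 (95% confidence interval 0.02 to 1.49, adjusted p = 0.248).

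Sham mice were compared between strains in females and between sexes in C57. MiR-155-5p was lower in brain of C3H than of C57 females by 1.33 on the log2 scale (SE 0.36, adjusted p = 0.0154), and the C3H sham brains held 2.27 to 5.26 RPM against 6.73 to 15.1 RPM in all C57 sham brains. MiR-146b-5p was higher in C3H brain by 0.46 (SE 0.10, adjusted p = 0.00148) and in C3H RBC by 0.73 (SE 0.18, adjusted p = 0.0053). In heart miR-155-5p was lower in C3H females by 0.46 (adjusted p = 0.0292) and higher in C57 females than in C57 males by 0.47 (adjusted p = 0.0233), but on library totals alone these differences were -0.15 and 0.01. In lung no member passed between sexes, with miR-146b-5p at -0.72 (female minus male, adjusted p = 0.122) and miR-155-5p at -0.68 (adjusted p = 0.0682). Both of the sham lungs that stood apart were male, and without them these differences were -0.19 (adjusted p = 0.611) and -0.30 (adjusted p = 0.322).

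No other member passed in these sham comparisons. Of all miRNAs, the share that passed between strains was 14.4% in lung, 15.0% in brain, 31.6% in heart, 18.3% in RBC and 22.3% in WBC. The share that passed between sexes was 6.05% in lung, 21.3% in brain, 34.9% in heart, 14.4% in RBC and 11.1% in WBC.

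A list of 12 other miRNAs of inflammation was read beside the members, of which 9 were tested in lung and in heart. They include miR-21a, which is induced in wounded and fibrotic tissue, miR-132 and miR-212, which come from 1 locus, and miR-147, miR-187, miR-9, miR-125 and let-7i. In C3H lung 3 of 9 rose and 0 fell, namely miR-21a-5p (1.501, adjusted p = 0.00509), miR-21a-3p (1.47, adjusted p = 0.00177) and miR-132-3p (0.86, adjusted p = 0.032). The share of 3 in 9 is close to the 33.4% of all miRNAs that passed there. MiR-21a-5p was at 21810 ± 2285 RPM in C3H sham lungs and 75595 ± 23683 RPM after WTLI. In C57 lung 2 of 9 rose, miR-21a-3p (1.41, adjusted p = 0.00373) and miR-9-5p (1.33, adjusted p = 0.0326), against 16.6% of all miRNAs, and without sham animals 1049 and 1052 4 of 9 did, against 28.2% of all miRNAs.

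In C3H heart 4 of the 9 rose, miR-21a-5p (1.33), miR-132-3p (1.10), miR-212-3p (0.91) and miR-21a-3p (0.82), against 16.7% of all miRNAs. In C57 heart 3 rose, miR-21a-3p (1.496), miR-21a-5p (1.08) and miR-212-3p (1.02), against 3.53% of all miRNAs. None of the list fell in lung or heart, and 0 of its tested miRNAs passed in brain, WBC or RBC. The median change over the list was 0.43 and 0.32 in C3H and C57 lung and 0.41 and 0.26 in heart, against -0.08, -0.05, -0.03 and 0.00 over all miRNAs tested. The list was chosen with earlier results of these data known and holds both arms of miR-21a. Its counts and medians are therefore a description, and no excess over all miRNAs is read from them.

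Markers of leukocytes were read in the same lungs and hearts, since miR-155-5p and miR-146a-5p are also carried by immune cells. In lung 0 of 5 leukocyte miRNAs (miR-223-3p, both arms of miR-142a, miR-150-5p and miR-342-3p) passed in either strain, against 33.4% of all miRNAs in C3H and 16.6% in C57. Among the 5 miR-342-3p came closest in C3H lung, at 93.0 ± 35.0 RPM in sham and 209.7 ± 47.5 RPM in WTLI lungs, with all 7 WTLI lungs above all sham lungs (1.00, adjusted p = 0.0548). In sham mice, however, miR-342-3p averaged 59.6 RPM in WBC, 185 RPM in lung and 856 RPM in brain. MiR-150-5p averaged 411 RPM in WBC and 446 RPM in lung, so neither set leukocytes apart by its level here. The summed level of the 5 ran from 3448 to 4858 RPM in C3H sham lungs and from 2608 to 7120 RPM after WTLI, and from 2492 to 9800 RPM in C57 sham lungs and 5653 to 7039 RPM after WTLI. Without sham animals 1049 and 1052, 3 of 5 were higher in C57 lung, against 28.2% of all miRNAs that passed. In C3H heart miR-342-3p rose by 0.71 and miR-150-5p of lymphocytes fell by 1.63, and in C57 heart miR-150-5p fell by 0.85. The summed leukocyte level ran from 1047 to 10190 RPM in C3H sham hearts, 807 to 2627 RPM after WTLI, 1176 to 2645 RPM in C57 sham hearts and 1873 to 2477 RPM after WTLI. The part of these cells in the changes of miR-146 was not tested.

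Markers of other tissues moved as well. Of all miRNAs, in either direction, 33.4% passed in C3H lung, 16.6% in C57 lung, 16.7% in C3H heart and 3.53% in C57 heart. In C3H lung all 3 cardiac muscle miRNAs were lower after WTLI (miR-499-5p by 1.46, miR-208a-3p by 1.42 and miR-133a-3p by 0.87 on the log2 scale), and their summed level went from 147 to 272 RPM in sham lungs to 68.6 to 171 RPM. In C57 lung 1 of 3, miR-499-5p, was lower. In C3H heart itself miR-499-5p was lower after WTLI (-0.85, adjusted p = 0.00613), from 7321 ± 3261 to 3427 ± 1546 RPM with 5 of 7 WTLI hearts below all sham hearts, and the summed level of the 3 muscle miRNAs had a median of 22382 RPM in sham and 10180 RPM in WTLI hearts. None of the 3 passed in C57 heart, where the medians were 18028 and 16052 RPM. In heart the lung-rich miR-34c-5p was higher after WTLI (2.43 in C3H, 1.25 in C57), while miR-200c-3p, the other lung epithelial marker, did not pass (-0.34 and -0.20). Of 4 erythrocyte miRNAs, 2 were lower in C3H heart, miR-451a by 1.33 and miR-144-5p by 1.09, and 0 passed in C57 heart or in lung of either strain. MiR-126a-3p of endothelium, among the most abundant miRNAs, kept its rank, so that quantile normalisation fixed its fitted change at 0.00 in C3H lung and in heart of both strains, which tests nothing. In RPM it was 387107 ± 24012 in C3H sham lungs and 312158 ± 43603 after WTLI, with 6 of 7 WTLI lungs below all sham lungs, and in C3H heart 304737 ± 26206 and 352182 ± 33860, with 4 of 7 WTLI hearts above all sham hearts. Of 2 brain miRNAs, miR-9-5p, also on the list of inflammation, rose in C57 lung by 1.33. MiR-124-3p did not pass there (1.89, adjusted p = 0.0549, with 1.10 ± 1.60 RPM in sham lungs and 8.76 ± 11.4 RPM after WTLI). In C57 heart they were at 0.65 (adjusted p = 0.056) and 1.52 (adjusted p = 0.222). Their part in the values of the members was not tested.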

How the data were processed

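The authors, per the study's methods, made QIAseq small RNA libraries, sequenced them, trimmed and aligned the reads to mouse miRNAs (mm10), and deposited raw read counts per mature miRNA for each tissue, with no normalisation. Whether molecular identifiers were counted was not stated. From these counts, miRNAs were filtered (filterByExpr of edgeR 4.0.16, minimum count 10, minimum total 15), quantile-normalised as log2 RPM and fitted with voom in limma 3.58.1 (R 4.3.3), with 4 groups per tissue. Adjusted p is Benjamini-Hochberg over all miRNAs tested, and a miRNA was called at an adjusted p under 0.05 if it also changed at least 2.25-fold. Sham strains and sexes used 6 groups, lung against heart 8. Tissues were compared on library totals with the animal as a block. Ratios (counts plus 0.5) used exact permutation tests over all splits, computed in Python 3.11.15 with numpy 2.4.6. The fits were tested on simulated data.

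Per the labels each animal gave several tissues, and deviations within an animal correlated weakly (0.017 across tissues, 0.057 between lung and heart). For the WTLI comparisons the animal was a block in 1 joint fit of all tissues, which is given where it changes a call. That fit also filtered and normalised the tissues together, so it differs from the main fits in more than the block. No library duplicated another (smallest chi-square per degree of freedom 15.5 over 746 pairs). The likeness of miRNAs was taken over group means of log2(RPM + 1) for those with a mean of at least 10 RPM over the groups. Named are the 4 members, the 3 most alike miRNAs, and members of the inflammation and marker lists that passed. The members and lists were chosen with earlier results of these data known. Alternatives were edgeR, DESeq2 1.42.0, TMM factors, library totals, other filters, sex as a covariate, subsets by sex, strain or the letter (A or B, of unstated meaning) in the sample labels, the animal block, and each library left out.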

Additional observations from a re-analysis of the deposited data

Results flagged for a closer look

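The 4 levels and the miR-146b-5p share were examined in the 15 groups of 4 to 10 libraries for a single library far from the rest. Of these 75 sets of values, which share libraries and so are not independent, 10 held one, and chance flags about 1 in 20 sets. WTLI animal 2081 was such a library for both miR-146a-5p (1579 RPM, others 519.8 to 815 RPM) and miR-155-5p (43.4 RPM, others 2.64 to 4.81 RPM) in C3H brain. WTLI animal 2082 was one in C3H RBC for miR-146a-5p (441 RPM, others 20.7 to 114 RPM), miR-146b-5p (94.2 RPM, others 8.52 to 43.1 RPM) and miR-155-5p (27.5 RPM, others 2.84 to 10.2 RPM), and in C3H WBC for miR-146a-5p (374 RPM, others 107 to 177 RPM). WTLI animal 1089, the only irradiated C57 female, was one in heart for miR-146a-5p (1177 RPM, others 781 to 872 RPM). Sham animal 2075 was one in C3H heart for miR-155-5p (94.999 RPM, others 43.5 to 59.2 RPM), and sham animal 2073 for miR-146b-3p (0.924 RPM, or 3 counts, others 0 to 0.36 RPM). In WBC of C3H sham mice, animal 2076 had a miR-146b-5p share of 30.7% (others 8.88% to 14.5%).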

How the results depend on the processing

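Counts of members called with the fold minimum moved as follows. In C3H lung (2, miR-146b-3p included) there were 3 with no fold minimum. There was 1 with edgeR, DESeq2, TMM factors, 10 counts in every library or the animal as a replicate block, 0 in letter A or letter B alone, and 1 to 2 with 1 library left out (1 without WTLI animals 2077 or 2094). In C57 lung (0) there was 1 with no fold minimum, in letter B alone, and without sham animals 1049 and 1052, and 0 to 1 with 1 library left out (1 without WTLI animal 1056). In C3H heart (1) there were 2 with no fold minimum, 0 on library totals or in letter A alone, and 0 to 1 with 1 library left out; in C57 heart (0) there was 1 with no fold minimum. MiR-146b-5p in C57 lung was 0.18 in letter A alone, 1.60 in letter B alone, 0.49 in males alone and 0.83 to 1.25 with 1 library left out, and its adjusted p rose above 0.05 without WTLI animals 1055, 1065, 1069 or 1089 or sham animals 1062, 1064 or 1073. The ratio of miR-146b-5p to miR-146a-5p in C3H lung was 1.01 as a difference in medians, 0.69 in letter A and 1.08 in letter B. In these 3 its adjusted p missed 0.05 (0.0518, 0.333 and 0.114). Within each letter, however, the groups did not overlap, and the exact test had too few libraries to pass easily. In C57 lung the values were 1.16, 0.72 and 1.53, 0.68 in males, and 0.88 to 1.46 with 1 library left out. In C3H heart the ratio was -0.13 in letter A. The ratio of the miR-146b arms in C57 lung became 0.0656 with 1 added to counts, 0.54 in letter B and -0.32 to 0.0246 with 1 library left out. Signs turned for miR-146a-5p in C57 lung (0.0854 in letter B, 0.0333 without animals 1049 and 1052, -0.17 to 0.0020 with 1 library left out), the strain difference of miR-146b-5p in lung (-0.44 in letter B, -0.0283 without animals 1049 and 1052, -0.0367 to 0.38 with 1 library left out) and heart (-0.31 in letter A), miR-155-5p in C3H heart (-0.0222 in letter B), and lung minus heart for miR-146b-5p (-0.48 in C3H and -0.19 in C57 with TMM factors, -0.0913 in C57 on library totals). Between sham tissues, miR-155-5p lung minus heart became -0.24 with TMM factors, -0.49 with quantile normalisation and -0.0643 in C3H, and brain minus RBC -0.91 and -4.55 with the first 2 of these; miR-146a-5p heart minus brain became 0.58 and 2.05, and heart minus WBC -0.37 in C57; miR-146b-5p heart minus WBC became 0.64 in C3H, heart minus RBC -0.0344 and -1.42, and WBC minus RBC -0.32 with quantile normalisation and -0.10 in C3H. Within a letter alone, adjusted p missed 0.05 for miR-146b-5p in C3H lung (letter A, 1.27, 0.137) and C57 heart (letter B, 0.102), miR-146a-5p in C3H heart (letter B, 0.0839) and miR-146b-3p in C3H lung (both letters, 0.0862 and 0.0654). The cause of these changes was not tested. Over all miRNAs, calls ranged widely in C57 lung (21, but 3 in males alone, 6 in letter A, 8 with 10 counts in every library, 11 with 1 strain at a time and 32 in letter B), C3H lung (34, but 13 with 10 counts in every library), C3H heart (21, but 10 with that filter, 11 in letter B, 38 in letter A and 32 without WTLI animal 2077), C57 heart (3, but 11 with a minimum of 1 count, 8 with the animal block, 6 in males alone, and 5 on library totals or without sham animal 1085) and C3H RBC (0, but 14 with DESeq2, 6 with edgeR, 13 with the animal block, 1 with a minimum of 1 count, and up to 2 with 1 library left out). Where limma called 0, the others gave 2 to 3 in C57 brain (2 with DESeq2), 2 in C3H WBC with the animal block, 5 in C57 WBC with a minimum of 1 count, and 1 to 2 in C57 RBC (1 with edgeR or DESeq2). The joint fit of all tissues with the animal as a block changed the members' calls as given in the report (miR-146a-5p in C3H lung and heart, miR-146b-3p in C3H lung) and no other call of a result named in the report. How much of this came from the block and how much from fitting the tissues jointly was not tested. Between tissues, leaving the block out changed no call. Of 74 further results on the members, 30 changed sign under some alternative and 6 that had not passed did so, all among sham strains or sexes, while miR-146a-5p brain minus WBC and brain minus RBC, and miR-155-5p lung minus WBC, passed but lost this under some alternative, the first 2 also turning sign under at least 1. At these depths miR-146b-3p outside lung was limited to a few counts per library, and such values cover counting error only.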
